A study of Saccharomyces cerevisiae with 9 samples.

Results

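The genes described here encode the machinery of RNA polymerase III and RNA polymerase I in budding yeast (Saccharomyces cerevisiae). They are 34 genes picked by name for their role, with earlier results of these data known, out of 5449 genes measured. They comprise 10 subunits found only in polymerase III, 2 shared by polymerases I and III, 4 shared by all nuclear RNA polymerases, 6 subunits of TFIIIC, 3 of TFIIIB, the repressor MAF1, 7 subunits found only in polymerase I and the polymerase I factor RRN3. All 34 had a probe set, 1 each, and every one lay above background on all 9 arrays, between 9.48 and 13.43 on the log2 scale.

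RNA polymerase III makes the transfer RNAs, the smallest ribosomal RNA and other short RNAs. TFIIIC binds the promoter inside a tRNA gene and places TFIIIB upstream of it, and TFIIIB then brings in the polymerase. Maf1 binds polymerase III and represses it when nutrients are short. RNA polymerase I makes the precursor of the larger ribosomal RNAs and is brought to its promoter by Rrn3. Los1 acts later, exporting tRNA from the nucleus to the cytoplasm.

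Expression was compared between 3 cultures of BY4742 from which LOS1 had been deleted (cultures 7, 8 and 9) and 6 cultures of wild-type BY4742 (cultures 1 to 6), each on 1 Affymetrix array. BY4742 is a haploid laboratory strain of mating type alpha that lacks URA3, LEU2 and LYS2 and part of HIS3, and the titles of the knockout arrays name URA3. Cells of both strains were taken at an OD600 of 0.5 from YEPD, a rich medium with glucose, shaken at 225 rpm and 30 °C. The labels give 3 isolates of each strain, with the wild-type isolates cultured in duplicate, but not which cultures share an isolate, so wild-type cultures were treated as separate samples although some are repeats of one isolate. The stated purpose of the study was to find candidate factors of longevity that lie downstream of Los1.

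The labels held: LOS1 (YKL205W) was at 3.65, 2.76 and 3.18 in the knockout cultures, all under the background of 4.67, against 10.89 to 11.34 in wild type, so it was at least 84.1-fold lower. URA3 (YEL021W) was at 10.84 to 10.91 in the knockout and at 2.73 to 3.28, under background, in wild type (at least 72.8-fold higher). HIS3, for which the labels name no difference, was 0.69 higher in the knockout on the log2 scale (limma adjusted p = 0.000368). Effects of the LOS1 deletion and of the differences at these marker genes cannot be told apart. The 4 markers of mating type alpha lay between 11.75 and 13.97 on all arrays and the 6 markers of mating type a between 5.11 and 7.82, above background, and no marker of either type passed the test. Of 7 ratios of 3′ to 5′ control probe sets, 1 did not overlap between groups, and it belongs to a member, SPT15. Over all 5449 genes, 301 passed an adjusted p of 0.05 in limma (5.52%), 143 higher and 158 lower in the knockout. After quantile normalization was repeated over the yeast genes the split was 175 higher and 126 lower. Arrays were quantile normalized, so a shift common to most transcripts would not show, and in these bulk samples less RNA per cell and fewer expressing cells cannot be told apart.

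Transcripts of the polymerase III and I machinery differed little between the LOS1 knockout and wild type. Of the 34 genes 1 rose and 0 fell: BRF1, a TFIIIB subunit, was 1.14-fold higher in the knockout. Among all genes tested 2.62% were higher and 2.9% lower past the same threshold, so 1 of 34 is near the background. The groups did not overlap for BRF1, for RPC34, a polymerase III subunit, and for MAF1, which is 3 of the 34, against 12.6% of all genes without overlap. The same 3 had an unadjusted p under 0.05, against 22.0% of all genes. The median difference, knockout minus wild type, was 0.01 over the 34 genes and -0.01 over all genes tested. The 95% interval of the difference lay within 1.25-fold in either direction for 31 of the 34, and the exceptions were RPC34, RPC10 and MAF1. Most genes met the same limit, 4261 of the 5449 tested.

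**Figure D1:**
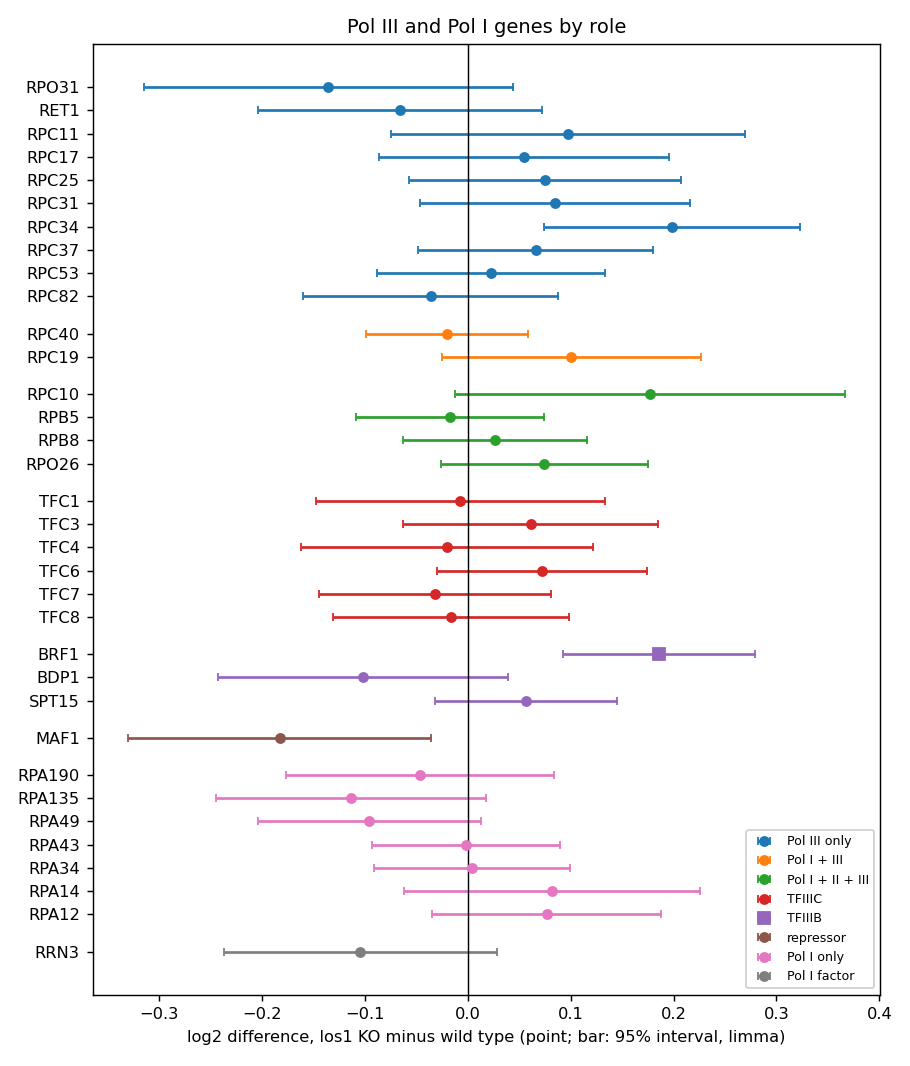
Log2 difference (LOS1 knockout minus wild type) of the 34 genes, grouped by role, with points for the difference and bars for its 95% interval from limma. The square marks BRF1, the gene past an adjusted p of 0.05, and the intervals of BRF1, RPC34 and MAF1 exclude 0.

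TFIIIB holds the gene that passed. BRF1 (YGR246C) encodes the subunit related to the general factor TFIIB, which bridges TFIIIC, the TATA-binding protein and the polymerase. Its values were 10.65, 10.62 and 10.55 in knockout cultures 7, 8 and 9, against 10.47, 10.45, 10.46, 10.39, 10.41 and 10.36 in wild-type cultures 1 to 6. All knockout cultures lay above all wild-type cultures, by more than the SD within either group. The difference was 0.19 ± 0.042 on the log2 scale (± SE, n = 3 and 6, limma adjusted p = 0.0321). The call was lost in 9 of 21 alternatives, 1 of them a threshold of 0.01, with adjusted p between 0.0056 and 0.13 over all of them. Leaving out any of the knockout cultures 7, 8 or 9 gave an adjusted p of 0.118, 0.13 or 0.0517, and leaving out wild-type culture 2, 4 or 6 gave 0.0504, 0.0715 or 0.0618. The 6 wild-type cultures come from 3 isolates, and averaging them in pairs gave an adjusted p of 0.0456 to 0.108 over the 15 possible pairings, so the call held in some pairings and not in others. The difference itself stayed between 0.16 and 0.23.

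The other TFIIIB subunits gave no such separation. BDP1 (YNL039W), the subunit that completes the factor on DNA, was at 9.87, 9.80 and 9.71 in the knockout, against 9.81, 9.96, 10.00, 9.98, 9.82 and 9.79 in wild type. Its groups overlapped and its difference was -0.10 (95% interval -0.24 to 0.04, adjusted p = 0.384). SPT15 (YER148W), the TATA-binding protein that serves all polymerases, was at 12.93, 12.99 and 13.03 in the knockout, against 12.89, 12.96, 12.92, 12.88, 12.96 and 12.94 in wild type, a difference of 0.06 (adjusted p = 0.441). Whether BRF1 differed from BDP1 or SPT15 in its response was not tested.

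SPT15 is also covered by 6 control probe sets that lie toward its 5′ end, middle and 3′ end, and these gave differences of different size. All 6 were higher on average in the knockout, also with each array centred on its median. The 5′ sets differed by 0.19 and 0.15, with no overlap between the groups (exact permutation p = 0.0238 and 0.0119, the second the smallest that 84 assignments allow). The middle sets differed by 0.06, also with no overlap (exact permutation p = 0.0476), and by 0.07, with overlap. The 3′ sets differed by 0.03 each, with overlap. So 3 of the 6 sets did not overlap, against 12.6% of all genes, but the 6 read 1 transcript and are not independent. The lowest p adjusted over the 6 was 0.0714. The ratio of the 3′ to the 5′ set was 1.19, 1.27 and 1.29 on the log2 scale in the knockout, against 1.53, 1.41, 1.33, 1.37, 1.44 and 1.36 in wild type (exact permutation p = 0.0238, 0.167 adjusted over 7 such ratios). The SPT15 difference thus ranged from 0.03 to 0.19 over the 6 sets. After adjustment no set passed, and neither did the ratio of the 3′ to the 5′ set.

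MAF1 (YDR005C), the repressor of polymerase III, was at 10.29, 10.22 and 10.30 in the knockout, against 10.60, 10.39, 10.39, 10.60, 10.37 and 10.37 in wild type. Each knockout culture lay below each wild-type culture, and wild-type cultures 1 and 4 stood above the other wild-type cultures. The difference of -0.18 ± 0.066 (± SE) did not pass (limma adjusted p = 0.144). Without wild-type cultures 1 and 4 it was -0.11 (adjusted p = 0.269). Maf1 is controlled largely by phosphorylation and by its movement between cytoplasm and nucleus, neither of which these arrays measure.

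**Figure D2:**
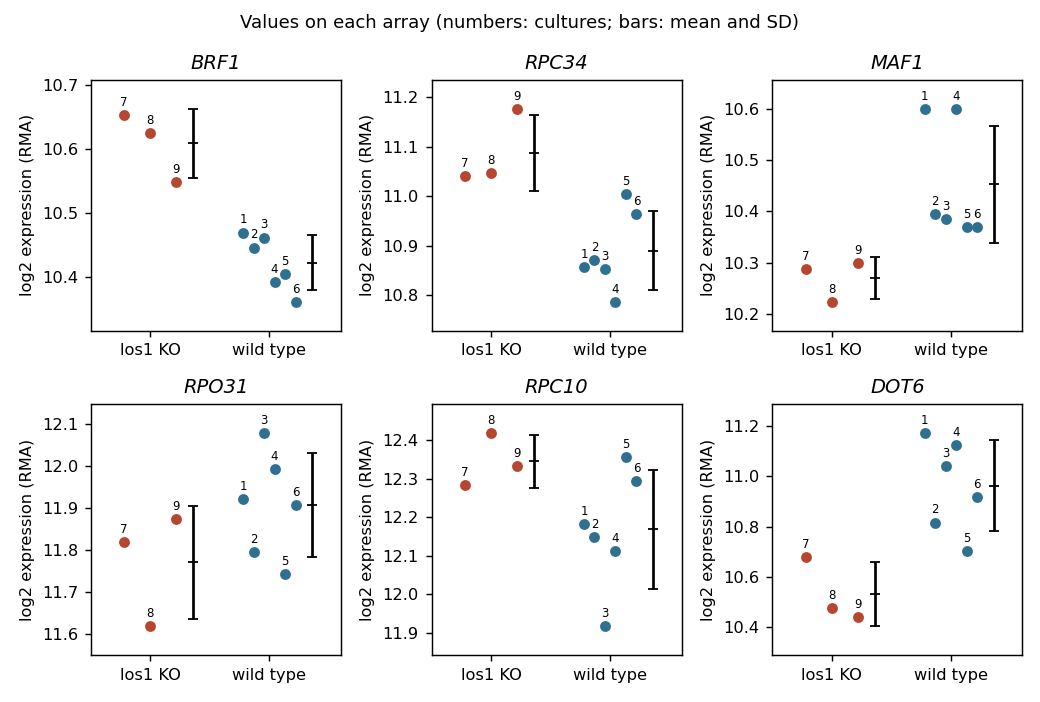
Log2 expression of BRF1, RPC34, MAF1, RPO31, RPC10 and the repressor DOT6 on each array, LOS1 knockout on the left and wild type on the right, with culture numbers over the points and bars for mean and SD. BRF1 and RPC34 lie higher and MAF1 and DOT6 lower in every knockout culture than in any wild-type culture, while RPO31 and RPC10 overlap. Only BRF1 and DOT6 passed the limma threshold.

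Among the 10 subunits found only in polymerase III, 0 passed in limma and 1, RPC34, had an unadjusted p under 0.05, with a median difference of 0.06. RPC34 (YNR003C) belongs with RPC82 and RPC31 to the subcomplex that opens the promoter, and its protein contacts Brf1. It was at 11.04, 11.05 and 11.18 in the knockout, against 10.86, 10.87, 10.85, 10.79, 11.00 and 10.96 in wild type. The groups did not overlap, although wild-type culture 5 came close to the lowest knockout culture. The difference was 0.20 ± 0.056 (± SE, 1.15-fold, adjusted p = 0.0693), and it passed in 3 of 21 alternatives, among them without wild-type culture 5 (adjusted p = 0.0344). The intervals of its partners included 0: RPC31 differed by 0.08 (95% interval -0.05 to 0.22) and RPC82 by -0.04 (-0.16 to 0.09).

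The catalytic core is formed by RPO31 and RET1, the largest and second largest subunits. RPO31 (YOR116C) was at 11.82, 11.62 and 11.87 in the knockout, against 11.92, 11.79, 12.08, 11.99, 11.74 and 11.91 in wild type. RET1 (YOR207C) was at 12.23, 12.08 and 12.17 in the knockout, against 12.16, 12.15, 12.38, 12.32, 12.16 and 12.20 in wild type. The groups overlapped in both, with differences of -0.14 (adjusted p = 0.361) and -0.07 (adjusted p = 0.576). In both genes knockout culture 8 was the lowest of the 9 and wild-type culture 3 the highest.

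Other polymerase III subunits, apart from RPC82, had differences above 0, which did not pass except under the alternatives given for RPC34. RPC11 (YDR045C), which cleaves the nascent RNA and takes part in termination, was at 11.72, 12.02 and 11.82 in the knockout, against 11.70, 11.80, 11.69, 11.64, 11.94 and 11.78 in wild type. Here knockout culture 8 was the highest of the 9 and wild-type culture 5 the next, and the difference was 0.10 (adjusted p = 0.501). The stalk subunits RPC17 and RPC25 differed by 0.05 and 0.08, and the pair RPC53 and RPC37, which acts in termination and reinitiation, by 0.02 and 0.07. Without knockout culture 9 the RPC53 difference was -0.002. The adjusted p of these 4 ranged from 0.49 to 0.836.

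RPC40 and RPC19 form the assembly platform shared by polymerases I and III. RPC40 (YPR110C) was at 12.64, 12.64 and 12.69 in the knockout, against 12.66, 12.68, 12.65, 12.68, 12.69 and 12.72 in wild type. It was the steadiest of the 34 genes among wild-type cultures, with an SD of 0.025, and its difference of -0.02 had a 95% interval of -0.10 to 0.06. RPC19 (YNL113W) was at 12.46, 12.61 and 12.55 in the knockout, against 12.36, 12.38, 12.46, 12.37, 12.56 and 12.49 in wild type, a difference of 0.10 (adjusted p = 0.334). Of the subunits shared by all nuclear polymerases, RPC10 differed by 0.18 (95% interval -0.01 to 0.37, adjusted p = 0.26), RPO26 by 0.07, RPB8 by 0.03 and RPB5 by -0.02. RPC10 was also the most variable of the 34 genes among wild-type cultures, with an SD of 0.15 and its lowest value, 11.92, in culture 3.

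The 6 TFIIIC genes had differences of -0.03 to 0.07 with a median of -0.01, and 0 passed in limma or had an unadjusted p under 0.05. TFC3 (YAL001C), whose protein recognises the B box inside tRNA genes, was at 9.85, 9.87 and 9.88 in the knockout, against 9.81, 9.95, 9.75, 9.88, 9.76 and 9.70 in wild type. The knockout values lay inside the wild-type range, and the difference was 0.06 (95% interval -0.06 to 0.19). TFC6 and TFC8, of the same lobe of the factor, differed by 0.07 and -0.02. TFC1, which contacts the A box, TFC4, which recruits TFIIIB, and TFC7 differed by -0.01, -0.02 and -0.03.

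Of the 7 subunits found only in polymerase I, 0 passed in limma and 0 had an unadjusted p under 0.05, with a median difference of -0.002. RPA190 (YOR341W), its largest catalytic subunit, was at 12.68, 12.50 and 12.65 in the knockout, against 12.68, 12.62, 12.71, 12.73, 12.52 and 12.67 in wild type. RPA135 (YPR010C), the second largest, was at 13.07, 12.91 and 13.10 in the knockout, against 13.17, 13.12, 13.27, 13.13, 13.04 and 13.12 in wild type. Their differences were -0.05 (adjusted p = 0.689) and -0.11 (adjusted p = 0.295), and in both genes knockout culture 8 and wild-type culture 5 were the lowest of their groups.

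RPA12 (YJR063W), the cleavage subunit that corresponds to RPC11, was at 12.17, 12.20 and 12.24 in the knockout, against 12.09, 12.13, 12.14, 12.01, 12.23 and 12.17 in wild type, a difference of 0.08 (adjusted p = 0.406). The stalk genes RPA43 and RPA14 differed by 0.00 and 0.08, and the pair RPA49 and RPA34 by -0.10 and 0.00. RRN3 (YKL125W), which bridges polymerase I to the factors on its promoter, was at 10.63, 10.59 and 10.57 in the knockout, against 10.68, 10.53, 10.83, 10.76, 10.68 and 10.70 in wild type. All but wild-type culture 2 lay above the knockout cultures, and the difference of -0.10 did not pass (adjusted p = 0.341).

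A property that the choice of genes did not use followed these small differences: the coding length of the gene. Lengths came from the RefSeq annotation of assembly R64, were known for all 34 and for all 5449 genes, include introns and hold no untranslated regions. Of the 16 genes under 1000 bases, a limit set after the values were seen, 14 were higher on average in the knockout, with a median difference of 0.07. Of the 18 longer ones 4 were higher, with a median of -0.03. Over all genes tested the split went the same way, with 61.9% of those under 1000 bases and 34.9% of the longer ones higher in the knockout, and medians of 0.03 and -0.04. With each array centred on its median, 16 of the short and 6 of the longer genes were above 0. Without knockout culture 8 it was 14 and 6, with medians of 0.05 and -0.02. The 4 largest subunits, RPO31, RET1, RPA190 and RPA135, all had differences below 0, and 14 of the 19 other subunits had differences above 0. Without knockout culture 8, 1 of the 4 largest turned above 0, RPA190 at 0.01. The Spearman correlation of length with the difference was -0.64 over the 34 genes and -0.79 over the 23 polymerase subunits. It was -0.30 over all genes tested and -0.69 over the 7 subunits found only in polymerase II together with RPB10. These are descriptions across genes that share the same 9 arrays, not tests.

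**Figure D3:**
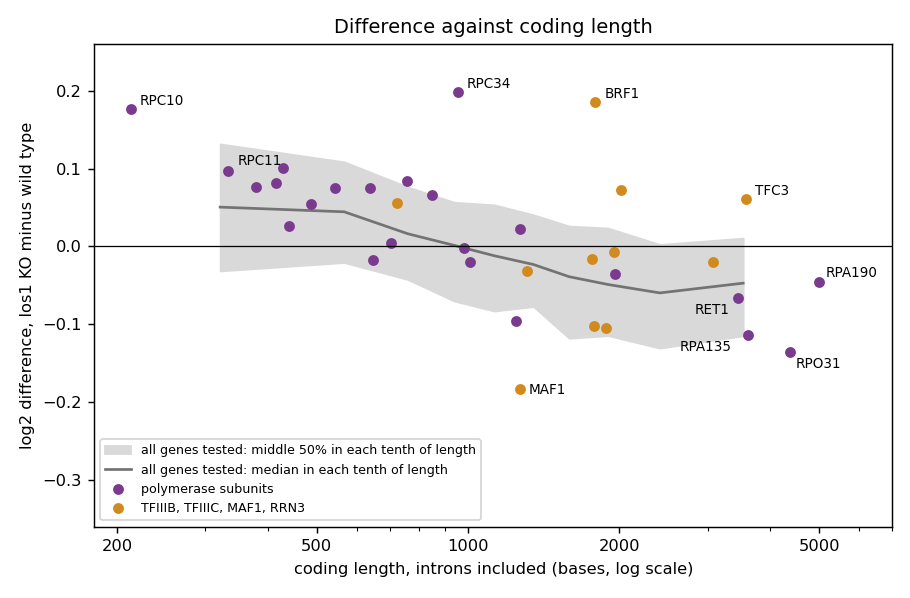
Log2 difference (LOS1 knockout minus wild type) against coding length on a log axis for the 23 polymerase subunits and the 11 other genes, over the median and middle 50% of all 5449 genes in 10 classes of length. The differences of short subunits lie mostly above 0 and those of the longest below, while BRF1 and RPC34 lie above and MAF1 below the genes of their length.

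The same slope appeared between cultures of one genotype. On each array, the deviation of the 34 genes from their 9-array means was set against length. The Spearman correlation was 0.18, -0.69 and -0.49 in knockout cultures 7, 8 and 9, against 0.55, 0.37, 0.57, 0.67, -0.84 and -0.38 in wild-type cultures 1 to 6. Over all genes tested the values were 0.02, -0.41 and -0.20 in the knockout, against 0.09, 0.25, 0.57, 0.40, -0.52 and -0.25 in wild type. Wild-type culture 5 was thus sloped like knockout culture 8, and knockout culture 7 had almost no slope. The mean of the 4 largest subunits minus that of the 16 short genes was -0.003, -0.25 and -0.07 in the knockout, against 0.09, 0.005, 0.20, 0.19, -0.16 and -0.002 in wild type. The groups overlapped in this contrast.

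**Figure D4:**
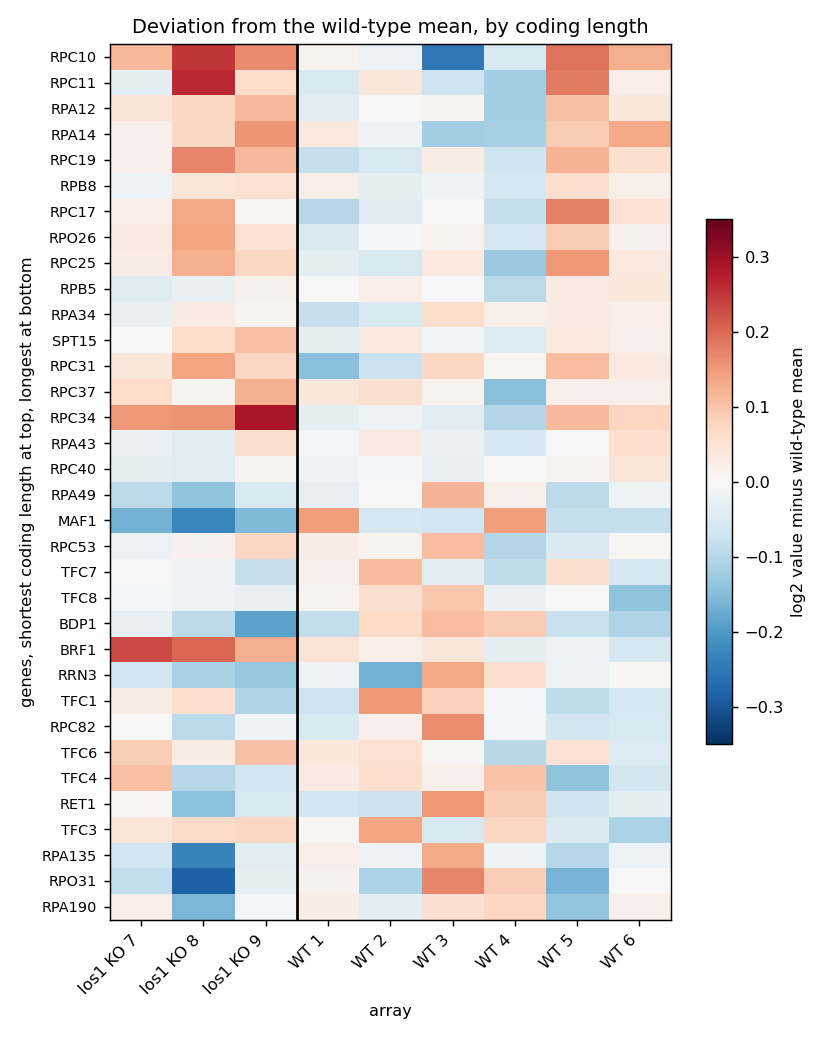
Log2 value minus the wild-type mean for the 34 genes (rows, shortest coding length at the top) on each array (columns, LOS1 knockout left of the line and wild type right of it). Knockout culture 8 and wild-type culture 5 are mostly raised at the top and lowered at the bottom, wild-type culture 3 is raised in most of the longer genes, wild-type culture 4 is lowered in most of the short ones, and the row of BRF1 is raised in all 3 knockout cultures.

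**Figure D5:**
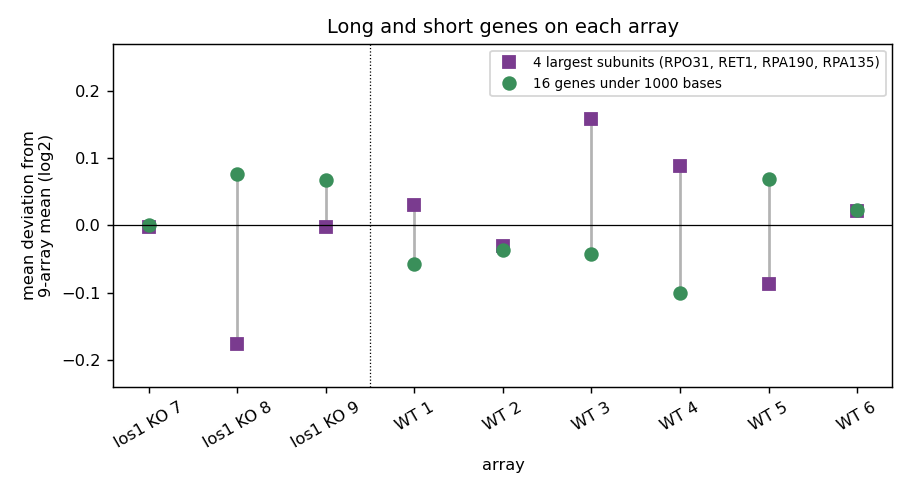
Mean deviation from the 9-array mean (log2) of the 4 largest subunits and of the 16 genes under 1000 bases on each array, with a grey line joining both. The long genes lie 0.25 below the short ones in knockout culture 8 and 0.16 below them in wild-type culture 5, and 0.20 above them in wild-type culture 3.

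When a smooth trend on length was removed from each array, a step chosen after seeing the data that also takes away any real difference tied to length, the differences of the largest subunits shrank. RPO31 then differed by -0.08, RET1 by -0.01, RPA190 by 0.01 and RPA135 by -0.06. Among the short genes RPC11, RPA12 and RPA14 then differed by 0.04, 0.02 and 0.03, down from 0.10, 0.08 and 0.08. RPC10 moved down too, from 0.18 to 0.12, as did RPC31, from 0.08 to 0.07, and RPC37, from 0.07 to 0.06. Of the 16 short genes 13 still had differences above 0, and of the 18 longer ones 9 did. The TFIIIC genes TFC3 and TFC6 moved up to 0.12 each. The Spearman correlation of length with the difference was then -0.19 over the 34 genes and -0.43 over the 23 subunits, against -0.004 over all genes tested. BRF1 then differed by 0.23 (limma adjusted p = 0.0056) and RPC34 by 0.20 (adjusted p = 0.035). So 2 of the 34 genes passed, where 7.96% of all genes did. The step shifts each gene by an amount that its length sets. BDP1, of nearly the same length as BRF1, moved up alike, from -0.10 to -0.06. The larger BRF1 difference was thus set by its length and is no added evidence for it. MAF1 differed by -0.17 (adjusted p = 0.123).

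Within wild type alone, subunits varied together to different degrees, and neither like length nor a shared complex gave one level of correlation. Over the 6 wild-type cultures RPO31 had a Pearson correlation of 0.88 with RET1 and 0.90 with RPA190, the largest subunit of another polymerase. RPC11 had 0.87 with RPA12 and -0.97 with RPA190. Other partners had lower values: RPC34 had -0.44 with RPC82 and 0.47 with RPC31, RPC31 had 0.22 with RPC82, RPA49 had 0.36 with RPA34, and RPC40 had 0.48 with RPC19. After the length trend was removed, RPO31 had 0.53 with RET1 and 0.23 with RPA190, and RPC11 had 0.55 with RPA12 and -0.48 with RPA190. RPC31 and RPC82 then had 0.76 and RPA49 and RPA34 0.88, while RPC34 and RPC82 had 0.28. The stalk partners RPC17 and RPC25 kept a high value, 0.91 as deposited and 0.82 without the trend, as did the polymerase I stalk partners RPA43 and RPA14, with 0.77 and 0.81. High values were not limited to such partners. RPC17 had 0.97 with RPC19, and 0.87 without the trend. RPC25 had 0.94 with RPA12, of polymerase I, and 0.66 without the trend. Over all 561 pairs of the 34 genes the median was 0.05 as deposited and 0.13 without the trend. With 6 cultures each such value is a loose description. The SD among wild-type cultures had a median of 0.080 over the 34 genes and 0.090 over all genes tested. Over the 78 related genes described below it was 0.072. The SD among knockout cultures had medians of 0.053 over the 34 genes, 0.070 over all genes and 0.064 over the 78.

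Other genes of the same pathways, 78 measured genes in all, were described in the same way. Among them 1 fell and 0 rose, 3 did not overlap between the groups and 7 had an unadjusted p under 0.05. Over all genes tested the shares were 5.52% past the threshold, 12.6% without overlap and 22.0% with an unadjusted p under 0.05, so none of the counts over the 78 exceeded the background. The gene that fell was DOT6 (YER088C), a repressor that binds the PAC element found upstream of polymerase I, polymerase III and ribosome assembly genes. It was at 10.68, 10.48 and 10.44 in the knockout, against 11.17, 10.82, 11.04, 11.12, 10.70 and 10.92 in wild type. The groups did not overlap, but knockout culture 7 and wild-type culture 5 lay close together. The difference was -0.43 ± 0.104 (± SE, 1.35-fold lower, limma adjusted p = 0.041), and the call was lost in 10 of 21 alternatives, with adjusted p between 0.0109 and 0.154. It was lost without any of the knockout cultures (0.0521, 0.154 and 0.151 without 7, 8 and 9) and without wild-type culture 1, 3, 4 or 6 (0.0635, 0.0738, 0.0778 and 0.0633). Without wild-type cultures 1 and 4 together the difference was -0.34 (adjusted p = 0.101).

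The remaining factors that act on PAC or the related RRPE element did not pass in the main fit. SFP1, an activator of ribosomal genes, differed by -0.20 (adjusted p = 0.117). It passed in 3 of 21 alternatives, with a lowest adjusted p of 0.0314. STB3, which binds RRPE, differed by -0.15 (adjusted p = 0.282), and TOD6, the relative of DOT6, by 0.05. Of 18 regulators of Maf1 and of polymerase III, among them SCH9, protein kinase A, casein kinase 2 and TORC1 genes, 0 passed in limma and 1 had an unadjusted p under 0.05, with a median difference of -0.01. That gene was KNS1 (YLL019C), a kinase that phosphorylates the Rpc53 protein. It was at 8.85, 8.85 and 8.65 in the knockout, against 9.43, 9.07, 9.23, 9.59, 8.95 and 9.13 in wild type, with no overlap. Its difference of -0.45 did not pass (adjusted p = 0.0693, between 0.00908 and 0.234 over 21 alternatives, 3 of which passed). As for MAF1, wild-type cultures 1 and 4 were the highest, and without both the KNS1 difference was -0.31 (adjusted p = 0.0871). TPK2, a catalytic subunit of protein kinase A, followed with -0.11 (adjusted p = 0.26).

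Of 11 other polymerase I factors 0 passed in limma and 0 had an unadjusted p under 0.05. Differences above 0 were found in 10 of the 11, with a median of 0.07 and a highest of 0.14. Among all genes tested the share above 0 was 45.3%. With the length trend removed, 10 of the 11 factors were still above 0, with a median of 0.05. The factors share the same arrays, so these counts are descriptions, not tests. The 2 factors with the smallest p were RRN10, of the upstream activating factor, with 0.10 (adjusted p = 0.301), and RRN7, of the core factor, with 0.11 (adjusted p = 0.306). RPB10, the remaining subunit shared by all nuclear polymerases, differed by 0.18 (95% interval 0.04 to 0.32, adjusted p = 0.134). Of 7 subunits found only in polymerase II 0 passed in limma and 1, RPB11, had an unadjusted p under 0.05, with a median difference of 0.01. RPB11, the shortest, differed by 0.16 (adjusted p = 0.197) and RPO21, the longest, by -0.12 (adjusted p = 0.511).

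Of 5 proteins that assist polymerase III 0 passed in limma and 1 had an unadjusted p under 0.05. The chromatin protein NHP6B came nearest with -0.15 (adjusted p = 0.0944). It passed in 1 of 21 alternatives, with the length trend removed (-0.20, adjusted p = 0.037). As for BRF1, the length of NHP6B set that shift, so the larger difference is no added evidence. With its 2 probe sets averaged, NHP6B differed by -0.11 (adjusted p = 0.224). SUB1 followed with 0.08 (adjusted p = 0.445). Of 8 polymerase assembly factors 0 passed in limma and 1 had an unadjusted p under 0.05, with GPN2 at 0.13 (adjusted p = 0.183) and IWR1, which brings polymerase II into the nucleus, at -0.08 (adjusted p = 0.399). Of 24 ribosome assembly genes, which are coregulated with polymerase I and III genes, 0 passed and 0 had an unadjusted p under 0.05, with a median of -0.02 and extremes of -0.13 in UTP22 (adjusted p = 0.31) and 0.11 in RRS1 (adjusted p = 0.328).

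The arrays also carry 17 control probe sets for the ribosomal RNAs that polymerase I makes. All 17 were lower on average in the knockout, by 0.01 to 0.33 with a median difference of -0.19, and 16 of them with each array centred on its median. The groups failed to overlap in 2 of the 17, near the share of 12.6% among all genes. In the first, toward the 5′ end of the small subunit RNA, values were 14.02, 14.01 and 14.04 in the knockout, against 14.10, 14.12, 14.14, 14.09, 14.10 and 14.11 in wild type, a difference of -0.08 (exact permutation p = 0.0119). In the other they were 13.96, 13.92 and 14.00 in the knockout, against 14.14, 14.28, 14.23, 14.16, 14.11 and 14.11 in wild type, a difference of -0.21 (exact permutation p = 0.0119). That is the smallest p the design allows, and adjusted over the 17 it was 0.101, so none passed. The probe sets read only a few RNAs and are not independent of each other. How the RNA was primed for labelling is not given in the sources used here. For the products of polymerase III, 5 noncoding RNAs were looked up (SNR6, SCR1, RPR1, SNR52 and RNA170), and 0 had a probe set annotated to them in the table used here. Products of polymerase III were not analysed here.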

How the data were processed

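The authors deposited log2 expression values, 1 per probe set and array. They came from RMA, per the submitters' processing notes, a method of background correction, quantile normalization and probe summary whose version is not given in the sources used here. Of 10928 probe sets, 5498 matched 1 gene of S. cerevisiae assembly R64 through the platform annotation, and the one brightest over the 9 arrays was kept per gene (5449 genes). The 1746 probe sets that named 1 gene outside that assembly were taken as S. pombe and gave the background, 4.67, their 95th percentile. No scanner intensities were used. Precision is limited by having 9 arrays.

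Differences (LOS1 knockout minus wild type) were tested 2-sided in R 4.3.3 by limma 3.58.1's moderated linear model. Its p-values were adjusted by Benjamini-Hochberg over the 5449 genes, with a threshold of 0.05. The fit was checked on simulated data with independent noise, which held no trend on length shared by genes. Exact 2-sided permutation tests used all 84 assignments. Genes named were all members, with every array printed for members past the threshold, without overlap, or of a fixed set of main subunits. From each related list, genes past the threshold and up to 2 others with the smallest p were named, except for TOD6, named after its value was seen. The members and lists were chosen with earlier results of these data known. Alternatives covered scaling, filters, probe set rules, variance models, array weights, pairing of wild-type arrays and leaving out arrays.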

Additional observations from a re-analysis of the deposited data

Results flagged for a closer look

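In 5 of 80 sets of wild-type values, 1 array stood far from the other 5, where chance flags about 1 set in 20. RPC37 was lowest, at 10.75, in wild-type culture 4, and RPB5 was also lowest there, at 12.26. RPC82 was highest, at 11.64, in wild-type culture 3. Among the ribosomal RNA control probe sets, one for the small subunit RNA was lowest, at 13.00, in wild-type culture 1, and one toward the 5′ end of the large subunit RNA was highest, at 12.27, in wild-type culture 5.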

How the results depend on the processing

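With 3 arrays against 6, counts depended on the arrays used. The count of genes past the threshold was 301, and 126 to 478 when 1 array was left out. It was 498 with array weights, 110 at an adjusted p of 0.01, 129 to 447 when wild-type arrays were averaged under the 15 pairings, 146 without wild-type arrays 1 and 4 and 434 with the length trend removed, both added after the data were seen. Of the 34 genes 1 passed, and 0 to 2 when 1 array was left out. It was 2 with array weights and with the length trend removed, and 0 at an adjusted p of 0.01, without wild-type arrays 1 and 4 and under the least favourable pairing. Over 714 member results under the alternatives, BRF1 lost its call in 9 and RPC34 gained one in 3, and 0 called differences changed sign. Signs changed 34 times, in 10 genes whose differences were at most 0.046 in size. No paired analysis was possible because the groups share no replicate numbers.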
